A study of Mus musculus with 4 samples.

Results

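Transcripts of 43 genes that build and run the primary cilium were followed in mouse medulloblastoma cells with and without an inhibitor of Smoothened. The genes were taken from a list of names by a rule that uses no measured value, although the list was drawn up with earlier results of these data known. Each of the 43 names matched 1 identifier among the 55573 genes in the deposited table. All 43 passed the filter on low counts. They comprised 11 genes of the intraflagellar transport (IFT) complex B, 6 of complex A, 5 of the motors, 7 of the BBSome, 4 of traffic at the ciliary membrane, 8 of the transition zone and 2 of the basal body.

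RNA was sequenced from neurospheres of cells that the labels call SmoWT, a mouse medulloblastoma of the Sonic Hedgehog subtype on a C57BL/6 background. Both groups carried the genotype Ptch1+/-, Trp53-/-, and the cells were derived from tumours that arose spontaneously in such mice. The control group received DMSO, the solvent, and the treated group received 0.1 µM GDC0449 (vismodegib, which binds and inhibits Smoothened), both for 24 h. Each group had 2 libraries, and the labels do not say how many tumours or cultures they came from, so any p-value reflects the spread among these libraries alone, and that spread may be technical. Reads in genes ranged from 16329721 to 20790030 per library. The Hedgehog target Gli1 was at 281 and 263 CPM (a gene's reads scaled to its library's size) in DMSO and at 38.8 and 32.7 CPM in GDC0449, so the libraries labelled as treated had the lower target level. Of 9 granule neuron progenitor markers 8 passed the expression filter, 7 of them higher in GDC0449 by the adjusted p (5 past 1.5-fold) and 1 lower, with sums of 958 and 961 CPM in DMSO and 1218 and 1302 CPM in GDC0449. Among them Atoh1 was at 58.2 and 55.3 CPM and at 101 and 99.2 CPM (log2 fold change 0.81, edgeR adjusted p = 1.57e-13).

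The primary cilium is a single microtubule-based projection in which vertebrate Hedgehog signalling takes place: Ptch1 leaves and Smoothened enters it when the ligand binds, and Gli proteins pass through its tip. IFT-B trains driven by kinesin-2 carry cargo towards the tip, IFT-A and dynein-2 return it, the BBSome takes membrane proteins out, and the transition zone at the base limits what enters. In granule neuron progenitors and in Hedgehog-driven medulloblastoma, cilia are required for the response to activated Smoothened.

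Promoters of some of the genes held a sequence known from cilium genes, the X-box bound by RFX transcription factors, or a part of it. A few are printed to show it. RefSeq promoters of GRCm38.p6, 250 bases before to 50 after a start, were found for 38 of the 43 genes, and 5 (Ift80, Ift81, Ift122, Dync2li1 and Tmem67) were not matched. The single site GTTGCC or GTTACC is only 1 arm of the X-box, not the whole of it. On either strand it lay in the promoters of 20 of 38 genes (52.6%), against 20.8% of the 27025 genes in the table. The pair GTTNCC followed after 0 to 3 bases by GGNAAC, which is its own reverse complement, lay in 4 of 38 (10.5%) against 0.936% of all genes. Every such pair also counts as a single site when its letter N is G or A. The GLI site GACCACCCA, on either strand, lay in 0 of 38 and in 0.289% of all genes. Median GC content was 60% in the promoters of these genes and 52.7% in all promoters, and its part in these shares was not tested. The sequences run 5′ to 3′ on the gene's strand and end before the start, with 1 match a line in capitals (in Ift140 they are the reverse complement of the site):
Bbs7, chr3:36613485-36613546, minus strand: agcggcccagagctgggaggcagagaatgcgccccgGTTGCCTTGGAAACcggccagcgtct
Ift57, chr16:49699198-49699258, plus strand: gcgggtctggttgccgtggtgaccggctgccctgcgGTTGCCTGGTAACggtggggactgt
Mks1, chr11:87853155-87853214, plus strand: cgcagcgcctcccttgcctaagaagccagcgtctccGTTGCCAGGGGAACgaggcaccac
Arl13b, chr16:62847204-62847257, minus strand: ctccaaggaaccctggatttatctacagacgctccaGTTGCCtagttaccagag
Ift140, chr17:25015941-25015994, plus strand: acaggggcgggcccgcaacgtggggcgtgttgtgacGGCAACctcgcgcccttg
Tctn2, chr5:124598651-124598704, plus strand: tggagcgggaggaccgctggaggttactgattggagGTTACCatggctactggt
Kif17, chr4:138262142-138262195, plus strand: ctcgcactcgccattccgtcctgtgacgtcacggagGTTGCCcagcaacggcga
The pair is shown for Bbs7 of the BBSome, Ift57 of IFT-B and Mks1 of the transition zone; the pair of Tctn1 lay after its start and is not printed. Single sites are shown for Arl13b of the ciliary membrane, Ift140 of IFT-A, Tctn2 of the transition zone and the motor gene Kif17. The RefSeq starts used for Kif17, Bbs7, Ift57 and Ift140 lie inside the GENCODE span of the gene, after its first base. The marked pair of Ift57 and the marked site of Kif17 lie inside that span too. The Kif17 span begins at 138250435, well before the printed window. A match is a description of letters, not of binding. Of the 13 genes that passed the adjusted p described later, 12 had a promoter in the table, and 5 of these held the single site.

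All 43 genes were detected in every library, at levels that spread widely within each complex. The deposited FPKM are per length and serve here to compare genes. They and the counts were not made from the same assignment of reads, so an order by FPKM can differ from one by counts. In IFT-B the mean over 4 libraries ran from 6.37 FPKM for Ift22, a small GTPase-like subunit, to 17.9 FPKM for Ift20, the subunit that also acts at the Golgi. Ift20 was at 18.3 and 16.9 FPKM in DMSO and 17.9 and 18.6 FPKM in GDC0449. Ift22 was at 6.43 and 6.33 FPKM in DMSO and 6.58 and 6.14 FPKM in GDC0449, so the groups overlapped for both genes. In IFT-A the small subunit Ift43 stood apart, at 49.0 and 46.3 FPKM in DMSO and 51.6 and 52.7 FPKM in GDC0449, and was the highest of the 43 genes in each library. The other members had means between 4.11 and 11.7 FPKM, and the lowest, Wdr19, was at 3.59 and 3.66 FPKM in DMSO and 4.92 and 4.26 FPKM in GDC0449.

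Among motors, Kif3a, a motor subunit of heterotrimeric kinesin-2, was highest, at 27.8 and 27.2 FPKM in DMSO and 23.5 and 25.1 FPKM in GDC0449. The homodimeric kinesin-2 gene Kif17 was the lowest of the 43 in each library, at 0.948 and 0.607 FPKM in DMSO and 0.733 and 1.08 FPKM in GDC0449, with overlapping groups on this scale. Between them lay Kif3b, the partner of Kif3a, at a mean of 8.42 FPKM, the dynein-2 heavy chain Dync2h1 at 10.5 FPKM and its light intermediate chain Dync2li1 at 15.5 FPKM. In the BBSome, Bbs2 led, at 10.8 and 10.7 FPKM in DMSO and 13.1 and 13.3 FPKM in GDC0449. Bbs1 was lowest, at 3.57 and 3.34 FPKM in DMSO and 3.01 and 3.34 FPKM in GDC0449, and its mean of 3.32 FPKM was close to that of Bbs9, 3.34 FPKM.

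At the ciliary membrane Arl6 was at 20.3 and 24.4 FPKM in DMSO and 18.4 and 18.2 FPKM in GDC0449, and Tulp3 had nearly the same mean, 20.2 against 20.3 FPKM. The phosphatase gene Inpp5e was the lowest of these, at 6.76 and 4.92 FPKM in DMSO and 6.02 and 6.92 FPKM in GDC0449. In the transition zone B9d1 and Mks1, which both encode B9-domain proteins, had means of 17.4 and 14.5 FPKM and stood above the other 6, at 2.70 to 4.83 FPKM. B9d1 was at 18.5 and 18.1 FPKM in DMSO and 17.3 and 15.6 FPKM in GDC0449. On this scale Nphp4 was lowest, at 2.33 and 3.04 FPKM in DMSO and 3.13 and 2.28 FPKM in GDC0449, with overlapping groups. Its counts do not place it there: Nphp4 was at 45.6 and 36.5 CPM in DMSO over 6044 exonic bases. Tctn2 was at 12.8 and 14.1 CPM in DMSO over 8318 exonic bases. At the basal body Ofd1 was at 5.96 and 6.88 FPKM in DMSO and 5.67 and 5.68 FPKM in GDC0449, above Cep164 at 4.75 and 4.55 FPKM in DMSO and 4.38 and 4.16 FPKM in GDC0449. Of 36 pairs of neighbours in the order within a group, 19 had overlapping ranges over the 4 libraries, while 17 were apart. These ranges pool both groups, so an overlap does not show equal levels. The ranges of B9d1 and Mks1 overlapped, yet Mks1 was below B9d1 in each library. Mks1 was at 15.1 and 16.6 FPKM in DMSO and 13.4 and 13.1 FPKM in GDC0449.

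**Figure D1:**
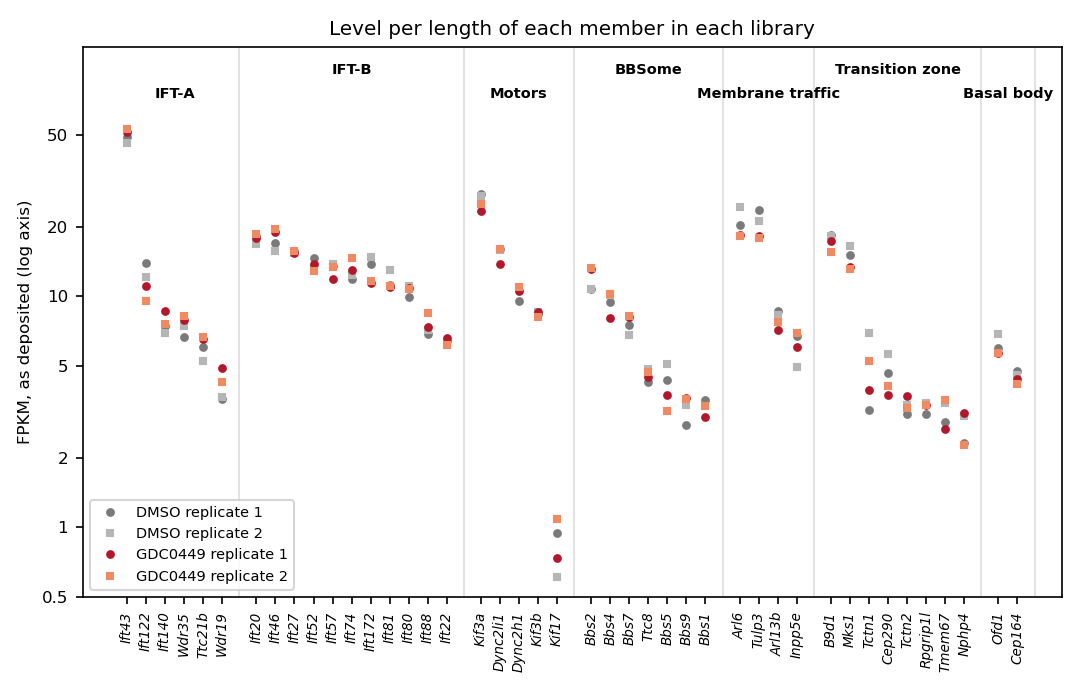
Deposited FPKM (log axis) of the 43 genes in each of the 4 libraries, ordered by mean within each group; grey points are DMSO, red and orange points are GDC0449. Ift43 stands highest, at 46.3 to 52.7 FPKM, and Kif17 lowest, at 0.607 to 1.08 FPKM, in both groups.

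After 24 h of GDC0449 none of the 43 genes differed past 1.5-fold. A gene was called when edgeR's quasi-likelihood test gave it a Benjamini-Hochberg adjusted p under 0.05 together with more than 1.5-fold difference. By that rule 0 of 43 were called, where 12.4% of the 15472 genes tested were (8.62% higher, 3.8% lower). Among the 9739 genes within the range of the members' mean CPM, 6.20 to 233 CPM, 9.35% were called (6.1% higher, 3.25% lower). DESeq2 and limma-voom also called 0. The unadjusted p of edgeR was under 0.05 for 14 of the 43 genes. It was under 0.05 for 6786 of the 15472 genes tested and for 4915 of the 9739 at the members' levels. Smaller differences were present: 13 genes (30.2%) passed the adjusted p alone, 5 higher and 8 lower in GDC0449. Over all genes tested 35.9% passed (18% higher, 18% lower), and at the members' levels 42.4% (19.5% higher, 22.9% lower), so the share among cilium genes was not above the background. That order turned in 2 of 13 alternatives: without a filter on low counts 16.3% of the 43 passed against 11.5% of all genes, and without GDC0449 replicate 1 23.3% against 22%. The median log2 fold change was -0.02, against 0.01 over all genes tested and -0.03 at the members' levels, and the median of its absolute size was 0.14 against 0.23 and 0.18.

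The largest estimates were a drop of 26.0% for Cep290 and an excess of 34.6% for Bbs9. For 38 of 43 genes the 95% interval of the log2 fold change lay wholly within 1.5-fold in both directions, where 56.7% of all genes tested and 79.5% at the members' levels did so. The 5 whose interval reached beyond were Kif17, Bbs5, Bbs9, Cep290 and Tctn1. Both GDC0449 libraries lay above both DMSO libraries for 14 genes and below for 15, and over all genes tested this held for 33.6% and 32.2%, and at the members' levels for 31.8% and 38.6%. The count of 13 depended on the control libraries: 2 genes passed without DMSO replicate 1, 1 without DMSO replicate 2, 10 without GDC0449 replicate 1 and 8 without GDC0449 replicate 2. The share over all genes tested fell alongside, to 8.95%, 8.24%, 22.0% and 24.2%. In these bulk samples fewer cells of a type and less RNA per cell cannot be told apart.

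**Figure D2:**
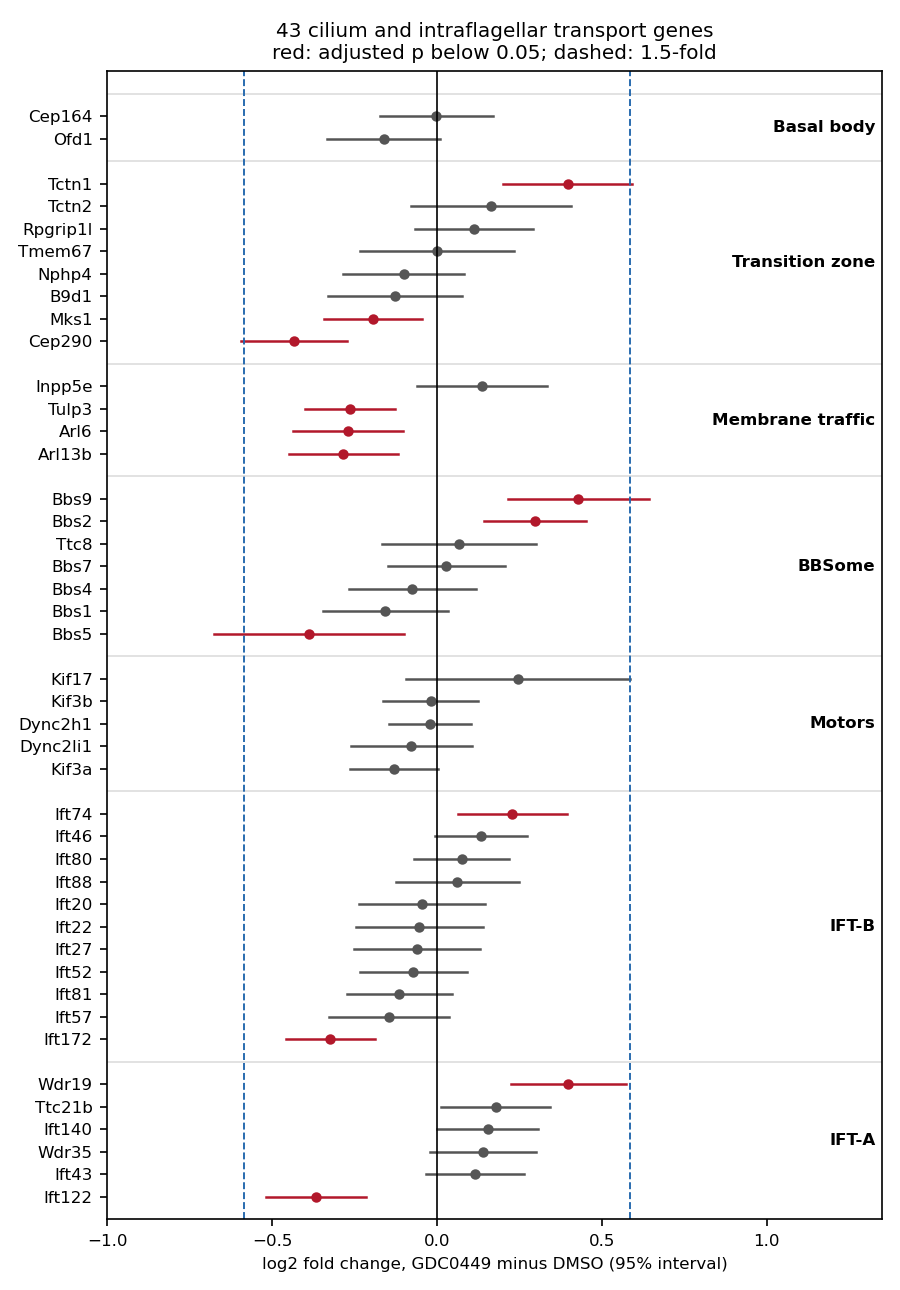
Log2 fold change of GDC0449 over DMSO for each of the 43 genes with its 95% interval from edgeR (2 libraries a group), by group; red marks an adjusted p below 0.05 and the dashed lines mark 1.5-fold. All 43 points lie between the dashed lines, with Cep290 lowest at -0.43 and Bbs9 highest at 0.43.

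IFT-B subunits stayed near their control levels, apart from Ift172, which was lower, and Ift74, which was higher. Of 11 genes 1 rose, 1 fell and 9 did not pass, with a median log2 fold change of -0.05. Ift172 (ENSMUSG00000038564, chromosome 5, 31253277 to 31291116), a large peripheral subunit, was at 114 and 114 CPM in DMSO and 92.1 and 90.2 CPM in GDC0449. The groups did not overlap, and it fell by 20.1% (log2 fold change -0.32, standard error 0.07, edgeR adjusted p = 0.000117). Ift74 (ENSMUSG00000028576, chromosome 4, 94614491 to 94693229), which with Ift81 forms the tubulin-binding module, was at 40.7 and 42.2 CPM in DMSO and at 46.1 and 50.9 CPM in GDC0449. It was 17.2% higher, with no overlap (0.23 ± 0.08, adjusted p = 0.0251). Its partner Ift81 was at 52.3 and 59.7 CPM against 51.0 and 52.3 CPM, with groups just apart and a log2 fold change of -0.11 that did not pass.

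Ift88, the subunit whose mutation is the classic model of cilium loss, was at 29.6, 29.8, 29.4 and 32.6 CPM in the 4 libraries, with overlapping groups. Its log2 fold change of 0.06 had a 95% interval of -0.12 to 0.25. The core subunits Ift22, Ift27 and Ift52 and the peripheral Ift20 had log2 fold changes of -0.07 to -0.04. Ift46, Ift57 and Ift80 were at 0.13, -0.15 and 0.07 and did not pass. Split by position in the complex, a split made after the values were seen, the 7 core subunits summed to 310.0 and 315 CPM in DMSO and 319.6 and 320.5 CPM in GDC0449, while the 4 peripheral ones summed to 249.5 and 245 CPM and to 224 and 223.7 CPM. Most of the peripheral drop was that of Ift172, at 114 and 114 CPM in DMSO and 92.1 and 90.2 CPM in GDC0449. The other 3 peripheral genes did not pass. Ift172 passed in 9 of 13 alternatives (adjusted p up to 0.068) and missed without DMSO replicates 1 and 2, at 0.0519 and 0.0527. Ift74 passed in 6 (up to 0.365) and missed without DMSO replicate 1 or 2 or GDC0449 replicate 2, at 0.244, 0.176 and 0.365.

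No IFT-A gene had overlapping groups: 5 of its 6 genes were higher in both GDC0449 libraries than in both DMSO libraries, and the remaining gene, Ift122, was lower in both, where 33.6% of all genes tested lay above and 32.2% below. By the adjusted p 1 rose, 1 fell and 4 did not pass, with a median of 0.15. Wdr19 (ENSMUSG00000037890, chromosome 5, 65199696 to 65260415), which encodes the core subunit IFT144, was at 33.1 and 30.7 CPM in DMSO and 41.7 and 42.6 CPM in GDC0449. It was 31.8% higher without overlap (0.40 ± 0.09, adjusted p = 0.000222). Ift122 (ENSMUSG00000030323, chromosome 6, 115853470 to 115926699), another core subunit, was at 96.1 and 81.5 CPM in DMSO and 71.7 and 66.3 CPM in GDC0449. It fell by 22.5%, again without overlap (-0.37 ± 0.08, adjusted p = 9.80e-05).

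The other core gene Ift140 was at 61.5 and 58.0 CPM against 70.8 and 62.3 CPM, a log2 fold change of 0.15 that missed the threshold (adjusted p = 0.115). The peripheral subunits Ttc21b (IFT139), Wdr35 (IFT121) and Ift43 had log2 fold changes of 0.18, 0.14 and 0.12, at adjusted p of 0.0851, 0.175 and 0.235. Wdr19 passed in 9 of 13 alternatives (up to 0.16) and missed without DMSO replicates 1 and 2, at 0.0514 and 0.0718. Ift122 passed in 9 (up to 0.134) and missed without DMSO replicate 1, at 0.134.

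Motor genes stayed close to their controls: 0 of 5 passed with edgeR, DESeq2 or limma-voom, and for 0 of 5 was edgeR's unadjusted p below 0.05. Dync2h1, which powers return transport, had the most reads: 224 and 246 CPM in DMSO and 229 and 234 CPM in GDC0449, with groups overlapping and a 95% interval of -0.15 to 0.10. Kif3a was at 117 and 121 CPM against 108 and 110.0 CPM, just apart, at -0.13 (adjusted p = 0.122). Kif3b and Dync2li1 overlapped between groups, at -0.02 and -0.08. Kif17 was at 5.70 and 5.65 CPM in DMSO and 6.74 and 6.73 CPM in GDC0449, and its log2 fold change of 0.25 had the widest interval of the 43, -0.10 to 0.59.

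BBSome genes went in both directions, with 2 higher, 1 lower and 4 not passing, and a median of 0.03. Bbs2 (ENSMUSG00000031755, chromosome 8, 94067954 to 94098928), which encodes a subunit that pairs with Bbs7 in the complex, was at 48.3 and 47.8 CPM in DMSO and at 59.2 and 58.9 CPM in GDC0449. It was 23.0% higher (0.30 ± 0.08, adjusted p = 0.00173). Bbs9 (ENSMUSG00000035919, chromosome 9, 22475715 to 22888280), a central subunit, was at 16.5 and 18.1 CPM and at 24.1 and 22.5 CPM. Its excess of 34.6% (0.43 ± 0.11, adjusted p = 0.00115) was the largest rise among the 43. Bbs5 (ENSMUSG00000063145, chromosome 2, 69647171 to 69667571), the subunit that binds phosphoinositides, was at 10.4 and 13.4 CPM in DMSO and 9.82 and 8.25 CPM in GDC0449. Its groups were only just apart, and it fell by 23.5% (-0.39 ± 0.14, adjusted p = 0.0296).

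Bbs1, which contacts Arl6, had a log2 fold change of -0.16 that did not pass, and Bbs4, Bbs7 and Ttc8 (BBS8) had overlapping groups, at -0.07, 0.03 and 0.07. Bbs2 passed in 9 of 13 alternatives (up to 0.0784) and missed without DMSO replicates 1 and 2, at 0.0731 and 0.0784; Bbs9 passed in 9 (up to 0.354) and missed without the same libraries, at 0.115 and 0.0698. Bbs5 passed in 5 (up to 0.41) and missed without DMSO replicates 1 and 2 or GDC0449 replicate 2, at 0.109, 0.41 and 0.261.

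At the ciliary membrane 3 of 4 genes fell by similar amounts, and the group's median was -0.27. Over all genes tested 18% passed as lower, and at the members' levels 22.9%. Of 15 genes of ciliary membrane cargo and its transport tested outside the 43, 1 passed as higher and 1 as lower, with a median of -0.05. The higher one, Rp2, was at 20.9 and 20.8 CPM in DMSO and 29.6 and 31.4 CPM in GDC0449 (edgeR adjusted p = 1.02e-05), and the lower one was Ptch1. Arl13b (ENSMUSG00000022911, chromosome 16, 62793685 to 62847040), the ciliary GTPase whose loss disturbs Hedgehog signalling, was at 51.0 and 47.5 CPM in DMSO and 39.8 and 41.2 CPM in GDC0449, a drop with no overlap. It fell by 17.8% (-0.28 ± 0.08, adjusted p = 0.00484). Arl6 (ENSMUSG00000022722, chromosome 16, 59612949 to 59639391), the GTPase that recruits the BBSome, was at 49.0 and 59.4 CPM and at 44.8 and 44.9 CPM. It fell by 17.1% (-0.27 ± 0.08, adjusted p = 0.00892). Tulp3 (ENSMUSG00000001521, chromosome 6, 128321161 to 128355851), which brings G protein-coupled receptors such as Gpr161 into the cilium with IFT-A, was at 114 and 107 CPM and at 93.7 and 90.1 CPM. It fell by 16.8% (-0.26 ± 0.07, adjusted p = 0.0016).

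Inpp5e, the phosphatase that Arl13b brings to the cilium, was at 28.4 and 23.7 CPM in DMSO and 28.3 and 29.2 CPM in GDC0449, with overlap and a log2 fold change of 0.14 that did not pass. It shares 20.3% of its exonic bases with Pmpca on the opposite strand, so its reads are less certain without a stated strand setting. Arl13b passed in 7 of 13 alternatives (up to 0.253) and missed without DMSO replicate 1 or 2 or GDC0449 replicate 1, at 0.13, 0.0682 and 0.0927. Arl6 passed in 6 (up to 0.243) and missed without DMSO replicate 2 or GDC0449 replicate 1 or 2, at 0.243, 0.0707 and 0.0615; Tulp3 passed in 8 (up to 0.103) and missed without DMSO replicate 1 or 2 or GDC0449 replicate 2, at 0.103, 0.06 and 0.0723.

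In the transition zone 1 gene rose, 2 fell and 5 did not pass, with a median of -0.05. Cep290 (ENSMUSG00000019971, chromosome 10, 100487558 to 100574840), a large protein that links microtubules to the membrane, was at 63.6 and 77.0 CPM in DMSO and 49.7 and 54.1 CPM in GDC0449. It had the largest drop of the 43, and it fell by 26.0% (-0.43 ± 0.08, adjusted p = 2.18e-05). Mks1 (ENSMUSG00000034121, chromosome 11, 87853215 to 87863803), a B9-domain protein of the Meckel syndrome complex, was at 71.5 and 69.1 CPM and at 63.6 and 59.4 CPM. It fell by 12.6% (-0.19 ± 0.07, adjusted p = 0.034). Tctn1 (ENSMUSG00000038593, chromosome 5, 122237848 to 122264460), a tectonic protein of the same complex, was at 21.9 and 25.5 CPM and at 31.7 and 30.5 CPM, 31.6% higher (0.40 ± 0.10, adjusted p = 0.000991).

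The rise of Tctn1 was seen in the counts alone: its deposited FPKM were 3.21 and 6.93 in DMSO and 3.94 and 5.22 in GDC0449, overlapping, and the log2 fold change turned to -0.06 on log2(FPKM + 1). It shares 25.5% of its exonic bases with genes on the opposite strand, of which Hvcn1 had 3 to 19 reads per library and Gm15481 had 0. Cep290 shares 7.58% with 4930430F08Rik, which had 113 to 144 reads. Tctn2, Rpgrip1l, Nphp4 and B9d1 had log2 fold changes of 0.16, 0.11, -0.10 and -0.13. Tmem67 (meckelin) was at 15.3 and 17.8 CPM and 15.8 and 17.2 CPM, overlapping and close to 0 difference, with a 95% interval of -0.23 to 0.23. Cep290 passed in 10 of 13 alternatives (up to 0.147) and missed without DMSO replicate 2, at 0.103, and Tctn1 passed in 9 (up to 0.937) and missed without DMSO replicates 1 and 2, at 0.12 and 0.0532. Mks1 passed in 3 (up to 0.34) and missed without each of the libraries in turn, at 0.215, 0.135, 0.0892 and 0.34.

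Neither gene of the basal body passed. Cep164, a distal appendage protein needed to start the cilium, was at 39.6 and 40.4 CPM in DMSO and 42.1 and 37.8 CPM in GDC0449, with a 95% interval of -0.17 to 0.17. Ofd1, a centriole and satellite protein, was at 40.8 and 47.0 CPM against 39.2 and 39.0 CPM, just apart, at -0.16 (adjusted p = 0.139).

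**Figure D3:**
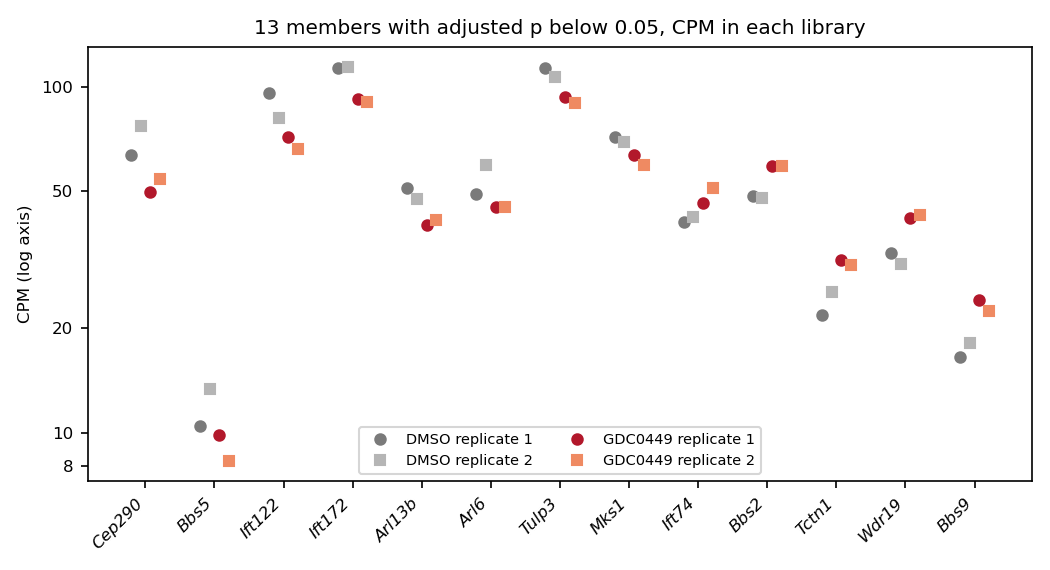
CPM (log axis) in each library for the 13 genes with an adjusted p below 0.05, ordered from the largest drop (Cep290) to the largest rise (Bbs9); grey is DMSO, red and orange are GDC0449. In each gene both GDC0449 libraries lie on the same side of both DMSO libraries.

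Set beside each other, the complexes had the following summed CPM, which weight abundant members most and have no test here. IFT-B summed to 559.5 and 560.1 CPM in DMSO and 543.6 and 544.2 CPM in GDC0449. IFT-A summed to 336 and 318 CPM and to 343 and 336 CPM, with overlap. The BBSome summed to 184 and 191 CPM and to 196 and 201 CPM, slightly higher in GDC0449. The transition zone summed to 287 and 299 CPM and to 278 and 267 CPM. The membrane group summed to 242 and 238 CPM and to 207 and 205 CPM, lower in GDC0449. Motors and basal body overlapped between groups. All 43 genes together gave 2141 and 2170.0 CPM in DMSO and 2094 and 2083 CPM in GDC0449. The sum over all genes tested was lower in GDC0449 too. It was 1.023e+06 and 1.013e+06 CPM in DMSO and 9.85e+05 and 9.801e+05 CPM in GDC0449. Genes at the members' levels summed to 5.753e+05 and 5.721e+05 CPM and to 5.616e+05 and 5.592e+05 CPM. Median log2 fold changes were 0.15 for IFT-A, -0.05 for IFT-B, 0.03 for the BBSome and -0.05 for the transition zone, and whether these differ from each other was not tested, since genes are not replicates.

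**Figure D4:**
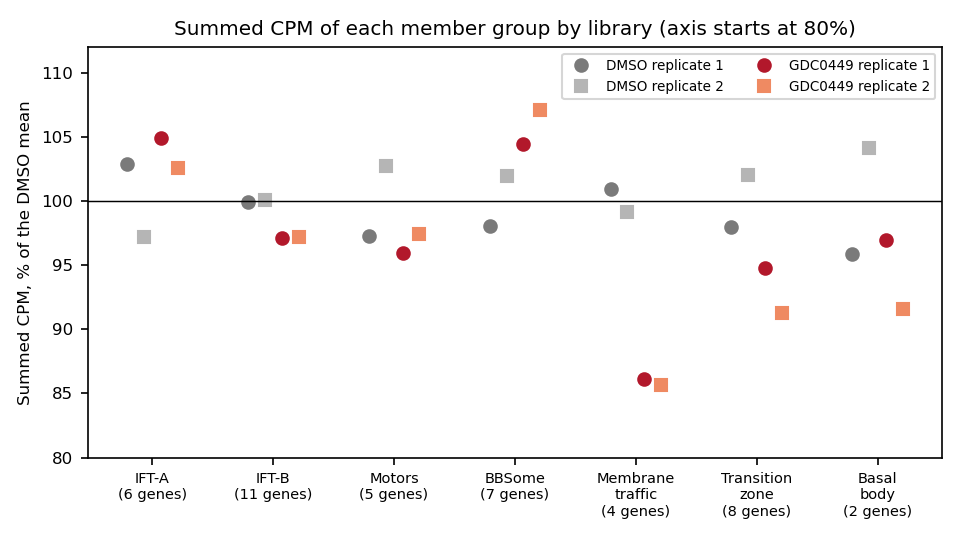
Summed CPM of each group in each library as a percentage of that group's DMSO mean (the axis starts at 80%); grey is DMSO, red and orange are GDC0449. The membrane traffic group stands lowest in GDC0449, at 207 and 205 CPM against 242 and 238 CPM in DMSO.

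Other genes of the cilium, were listed by role outside the 43. Of 79 such genes 76 passed the filter, 8 rose and 10 fell by the adjusted p, 58 did not pass, and the median was 0.00. The passing share of 23.7% was below the 35.9% of all genes tested, and the shares in the lists by role are to be read against that figure. Only Ptch1, itself a Hedgehog target, was called past 1.5-fold, where 12.4% of all genes tested were. It was at 15.4 and 16.1 CPM in DMSO and 8.45 and 7.68 CPM in GDC0449 (-0.96 ± 0.13, adjusted p = 4.12e-08), and the call was lost on log2(FPKM + 1), at -0.33 with an adjusted p of 0.0368, and on log2(FPKM + 0.1), at -0.79 and 0.0524, the largest of 13 alternatives. Of 16 further basal body genes tested 1 was higher, 2 were lower and 13 did not pass, with a median of -0.02. The 2 lower ones were the appendage genes Sclt1 and Cep83. Sclt1 fell by 28.5%, from 35.6 and 37.8 CPM to 26.1 and 26.2 CPM (adjusted p = 2.52e-05), and Cep83 fell by 19.6% (adjusted p = 0.000793). The appendage genes Cep89, Fbf1 and Cep164 did not pass, at 0.08, -0.0033 and -0.0016, and the higher gene was Ttbk2, by 15.8% (adjusted p = 0.0393). Sclt1 missed without DMSO replicate 2, at 0.0513, the largest of its 13 alternatives, and Cep83 missed without DMSO replicates 1 and 2 and GDC0449 replicate 1, at 0.0825, 0.149 and 0.0903, and in 8 of 13 it passed (up to 0.149).

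Among other IFT-B genes Ttc30b was 49.2% higher (adjusted p = 0.000519), although reads of its near-identical relatives may be split between copies, and Hspb11 (IFT25) fell by 18.7% (adjusted p = 0.0201). Of 9 further motor subunits 3 were higher and 0 lower, with Kifap3, the non-motor subunit of kinesin-2, 21.2% higher (adjusted p = 0.0029) and Dynlt1b, which also has near-identical copies, 40.9% higher (adjusted p = 0.00042). Of 16 further transition zone genes 2 were higher and 3 lower. The kinase gene Nek8 was 33.3% higher (adjusted p = 0.00285), and Iqcb1, at 29.8 and 41.2 CPM against 26.1 and 31.4 CPM with overlapping groups, fell by 18.7% (adjusted p = 0.0223). Of 5 further BBS genes 0 passed with edgeR, and for 1 the unadjusted p was below 0.05. Bbip1 (BBIP10) and Lztfl1 were at -0.23 and -0.10 (adjusted p = 0.0507 and 0.385). Bbip1 passed with relative log expression scaling (0.0479), limma-voom (0.0431), a replicate block (0.00858) and without GDC0449 replicate 2 (0.0265), and was at up to 0.566 in the other alternatives. Of 9 genes that suppress or dismantle cilia, 3 fell, with Aurka, the mitotic kinase that starts disassembly, falling by 14.1% (adjusted p = 0.0129) and Ccp110, the centriole cap, by 11.7% (adjusted p = 0.0192). Each of these passing genes except Nek8 missed without DMSO replicate 1, at adjusted p of 0.0625 to 0.136, and each missed without DMSO replicate 2, at 0.07 to 0.786. Hspb11, Kifap3, Iqcb1, Aurka and Ccp110 also missed without GDC0449 replicate 1, at 0.112 to 0.346, and Hspb11, Aurka and Ccp110 without GDC0449 replicate 2, at 0.0949 to 0.105.

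Of 6 genes for RFX factors, which bind the X-box, 4 rose, 0 fell and 2 did not pass, with a median of 0.40, where 18% of all genes tested passed as higher and 18% as lower. Rfx3, a regulator of cilium genes in several tissues, was at 78.2 and 83.3 CPM in DMSO and 99.7 and 99.5 CPM in GDC0449, 23.4% higher (adjusted p = 0.000421). Rfx5, known for control of MHC class II genes rather than cilia, was at 15.6 and 14.7 CPM and at 22.8 and 23.6 CPM. It was called past 1.5-fold, at 1.53-fold (adjusted p = 8.98e-06), and missed without DMSO replicate 2, at 0.57 on the log2 scale (adjusted p = 0.0509, the largest of its 13 alternatives). On log2(FPKM + 1) and log2(FPKM + 0.1) it was at 0.42 and 0.50, under 1.5-fold. Rfx2 and Rfx7 were 40.6% and 15.7% higher (adjusted p = 0.00739 and 0.0175). Whether Rfx2, Rfx3 and Rfx7 passed in the 13 alternatives was not examined. Rfx4 was at 2.65 and 2.48 CPM against 4.46 and 3.22 CPM, with no overlap (adjusted p = 0.0517), and Rfx1 overlapped, at -0.04. The 4 genes with the X-box pair did not share a direction: Mks1 fell, Tctn1 rose, and Bbs7 and Ift57 were at 0.03 and -0.15.

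**Figure D5:**
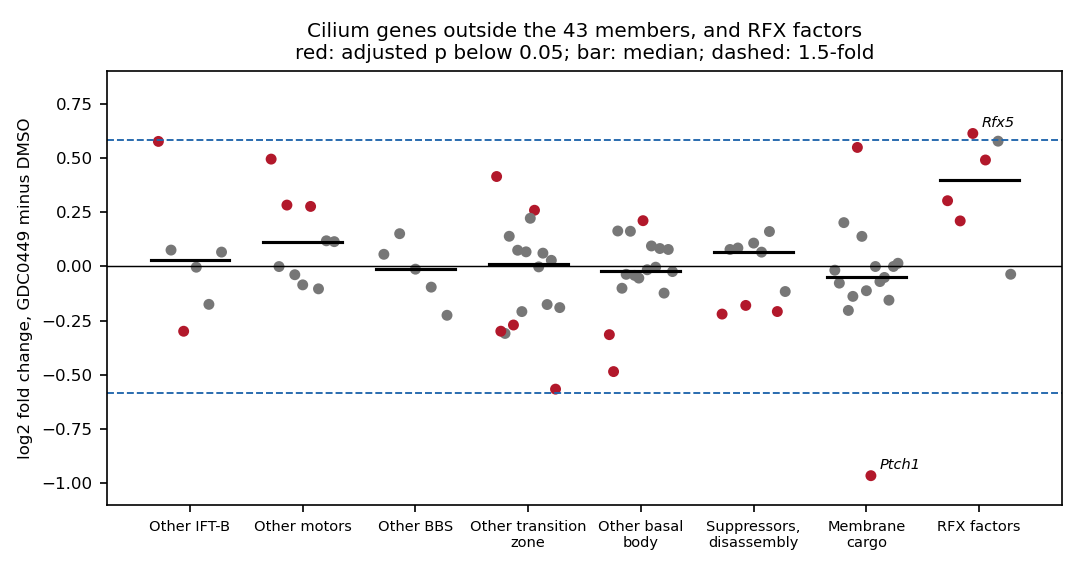
Log2 fold change of each tested gene in the other cilium lists and among the RFX factors; red marks an adjusted p below 0.05, bars are medians and dashed lines mark 1.5-fold. Ptch1 (-0.96) and Rfx5 (0.61) are the genes past the dashed lines with a call, and the RFX factors have the highest median, at 0.40.

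Genes of motile cilia were scarce. Of 18 multiciliated cell markers 16 were matched, 3 of these (Gmnc, Dnah5 and Pifo) had 0 reads in all libraries, and the defining factor Foxj1 had 3 to 11 reads per library. Their summed level was 42.7 and 42.8 CPM in DMSO and 58.5 and 53.9 CPM in GDC0449, and Ccdc40, which was called higher (adjusted p = 8.60e-06), and Ccdc39 made up most of it. Of 15 mitosis genes 3 were higher and 7 lower, with sums of 3207 and 3223 CPM against 2995 and 3017 CPM. Of 8 postmitotic neuron markers 7 were higher and 0 lower, with sums of 1398 and 1412 CPM against 2441 and 2400.0 CPM. Of 8 astrocyte markers 2 (Aqp4 and Aldh1l1) had 0 reads in all libraries. Of the 6 tested 3 were higher (Slc1a2, Sparcl1 and Aldoc), 0 lower and 3 did not pass. Among these last, Gfap and S100b were at 0.427 to 2.42 CPM. The well expressed Slc1a3 was at 72.2 and 78.5 CPM in DMSO and 72.8 and 70.2 CPM in GDC0449, overlapping, at -0.07. Astrocyte marker sums were 172 and 185 CPM against 304 and 298 CPM. Of 3 microglia markers tested 2 were lower, with sums of 4.84 and 7.203 CPM against 2.33 and 2.94 CPM. Over all genes tested 18% passed as higher and 18% as lower, to be set beside all these marker counts. The part of these markers, of the granule neuron progenitor markers and of the mitosis genes in the results was not tested.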

How the data were processed

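Raw reads per gene and FPKM were read as deposited. Per the submitters' processing notes and the series' design text, the authors trimmed adapters with Trim Galore, mapped reads to mm10 with HISAT2, counted reads with HTSeq 0.11.1, tested with DESeq2 1.26.0, and computed FPKM from reads, gene length and depth. Annotation release, strand setting and the FPKM tool were not stated in what was read here. As deposited, 546 genes have 0 counts and an FPKM of at least 1 in all 4 libraries, so both columns were not made from the same assignment of reads. The 6 entries without a gene stayed out of sizes and tests. They hold reads outside genes (12.3% to 14.4% by library), ambiguous ones (4.73% to 4.91%) and multiply aligned ones (10.4% to 10.7%).

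Symbols and coordinates (GRCm38) came from GENCODE M21. Counts were tested with edgeR 4.0.16 (R 4.3.3): default expression filter, TMM scaling, quasi-likelihood F test with group as the only term, Benjamini-Hochberg adjustment over 15472 genes. The code was tested on simulated data; a first bar for recovery over all expression levels was narrowly missed and was then replaced by one for genes at 5 CPM or more. A call needed an adjusted p below 0.05 and over 1.5-fold; passing the adjusted p alone was counted separately. CPM were computed here with TMM factors, and standard errors are the log2 fold change over the square root of F. Replicates differed by more than sampling noise (chi-square per gene of 4.27 in DMSO and 3.45 in GDC0449) and were kept apart. Alternatives used relative log expression and upper-quartile scaling, other filters, DESeq2 1.42.0, limma-voom (limma 3.58.1), a replicate block, each library left out, and FPKM with limma. The members and lists were chosen with earlier results of these data known. All 43 genes are named, with values in every library for those that passed and for the extremes of each group in fold change and FPKM; of other cilium lists, called genes or otherwise the 2 with the smallest p. Values of Rfx genes other than Rfx5, and of Ift81, Ift88 and Atoh1, were added after they were seen. So were those of Rp2, Ttbk2, Cep89, Fbf1 and the named astrocyte markers, the CPM of Nphp4 and Tctn2, and the FPKM of Mks1.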

Additional observations from a re-analysis of the deposited data

How the results depend on the processing

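0 of the 43 genes was called past 1.5-fold in any of the 13 alternatives. The number whose interval lay within 1.5-fold, 38, ranged from 35 to 41. The 13 that passed the adjusted p became 7 without a filter on low counts (16.3%, against 11.5% of all genes) and 9 with DESeq2 (20.9% against 24%). On log2(FPKM + 1) and log2(FPKM + 0.1) 0 passed, against 12.2% and 13.1% of all genes. The count also fell with each library left out. The genes lost with DESeq2 were Ift74, Bbs5, Arl6 and Mks1, at adjusted p of 0.119, 0.15, 0.0515 and 0.101. Without the filter these were lost too, along with Ift122 and Arl13b, at 0.0578 and 0.0599. Calls over all genes, 1921 on all libraries (1333 higher, 588 lower), became 1165 with the filter at 5 CPM, 840 on log2(FPKM + 1) and 1258 on log2(FPKM + 0.1), and 852 to 1711 with a library left out. The IFT-A median of 0.15 became 0.18 with upper-quartile scaling, 0.17 with the filter at 5 CPM and 0.18 on log2(FPKM + 0.1), and 0.12 to 0.16 with a library left out. The IFT-B median of -0.05 became 0.0017 on log2(FPKM + 1) and 0.0018 on log2(FPKM + 0.1), and -0.0625 to -0.0128 with a library left out. The BBSome and motor medians ranged from -0.0246 to 0.069 and from -0.0802 to -0.008 with a library left out, and the membrane median was -0.22 on log2(FPKM + 1). The cause of these shifts was not tested.

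Signs turned in 33 of 559 values, all of genes that had not passed except Tctn1. With upper-quartile scaling Kif3b, Dync2h1, Tmem67 and Cep164 turned to 0.014, 0.013, 0.033 and 0.032, and with the filter at 5 CPM to 0.0083, 0.0069, 0.0275 and 0.026. Tmem67 turned to 0.0054 with limma-voom. On log2(FPKM + 1) Ift20, Ift27, Dync2h1, Tctn1 and Nphp4 turned to 0.0504, 0.0017, 0.068, -0.0599 and 0.0064, and on log2(FPKM + 0.1) to 0.0529, 0.0018, 0.074, -0.0573 and 0.0072. With each library left out in turn, the log2 fold changes that turned sign ranged as follows: Ift20 -0.14 to 0.0501, Bbs7 -0.0246 to 0.0673, Ttc8 -0.0205 to 0.14, Nphp4 -0.26 to 0.0712, Dync2h1 -0.0883 to 0.0374, Tmem67 -0.11 to 0.0964, Cep164 -0.0833 to 0.0713, Dync2li1 -0.17 to 0.0082, Bbs4 -0.24 to 0.069, Ift88 -0.0162 to 0.13, Ift22 -0.13 to 0.0173 and Kif3b -0.0643 to 0.0197.

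Equal replicate numbers showed little sign of a pairing, which 2 libraries a group cannot settle: their deviations correlated at 0.035 over genes. A replicate block raised the 13 to 18 (8 higher, 10 lower) and lost none. The share over all genes rose as well, to 44.1%, against 41.9% of the 43. Kif17, the gene with the fewest reads (91 to 142), is where depth limits most.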

Other observations

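Within some complexes the members that passed went opposite ways, so their ratio of counts within a library, which does not depend on the scaling between libraries, shifted. The pairs were chosen for their opposite directions after the values were seen, which fixes the direction of the ratio. The ratios are not corrected for length and they have no test. The ratio of Wdr19 to Ift122 in IFT-A was 0.344 and 0.377 in DMSO and 0.581 and 0.642 in GDC0449. The ratio of Bbs9 to Bbs5 in the BBSome was 1.59 and 1.36 in DMSO and 2.45 and 2.72 in GDC0449. The ratio of Ift74 to Ift172 in IFT-B was 0.358 and 0.369 in DMSO and 0.501 and 0.564 in GDC0449.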
